A study of Mus musculus with 24 samples.

Results

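Both 12-month groups of a mouse glaucoma study were set against its 6-month group, in RNA of microglia sorted from the retina. All 24 retinas of the series, from 15 animals, were members. The 12-month DBA/2J group (Gpnmb-/- Tyrp1b-/-) had 10 retinas of 5 animals, with eyes graded mild (NOE), moderate or severe. The 12-month Gpnmb+ group (Gpnmb+/+ Tyrp1b-/-) had 9 retinas of 5 animals, and the 6-month DBA/2J group (Gpnmb-/- Tyrp1b-/-), labelled as early disease, had 5 retinas of 5 animals. Every animal was thus Tyrp1b-/- and untreated. The microglia gate was CD11b+ Ly6c- Fcrls+. DBA/2J mice carry mutations of Gpnmb and Tyrp1 and develop pigment dispersion, raised eye pressure and loss of ganglion cells with age, and mice of the strain with intact Gpnmb serve as controls without the pressure disease. The question was which genes differed from 6 months in the same direction in both 12-month genotypes. There were no 6-month Gpnmb+ animals, so age and genotype cannot be told apart in the Gpnmb+ comparison, and both comparisons share the same 5 animals aged 6 months.

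Microglia are the resident macrophages of the retina. In the undisturbed state they express purinergic receptors such as P2ry12 and P2ry13 and the fractalkine receptor Cx3cr1, and around dying neurons many of them lower these genes and raise Apoe and lysosomal genes. Mitochondrial DNA encodes subunits of the respiratory chain and of ATP synthase and the ribosomal RNAs that translate them, while all other mitochondrial proteins come from nuclear genes.

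Eyes were summed per animal, and animal totals ran from 7907692 to 30743195 counts in 12-month DBA/2J, from 4715515 to 28849673 in Gpnmb+ and from 12043862 to 17992997 at 6 months. The 6-month animals and Gpnmb+ animal 4 have 1 retina each, and every other 12-month animal is a sum of 2. Age thus runs almost fully with the number of eyes summed. Fewer than 10000 genes were detected in 5 retinas, each from Gpnmb+ animal 1, 2 or 3. The 13 microglia markers summed to a median of 32570 CPM in 12-month DBA/2J, 30380 in Gpnmb+ and 35140 at 6 months, where CPM is counts per 1e6 of the scaled total of the genes tested. Fcrls itself was under 1 CPM in 12-month DBA/2J animal 4 and 0 in Gpnmb+ animal 1. Gpnmb was counted in 1 retina, the left eye of Gpnmb+ animal 5 (30.9 CPM), and was 0 in the other Gpnmb+ retinas, so it checks the genotype labels in 1 animal only. The right eye of that animal had Xist (124.5 CPM) together with Y-linked reads and 0 counts of Gpnmb, and whether it was mixed or mislabelled was not tested. The mitochondrial count given below as 10 genes in both genotypes was 9 without this animal. Tyrp1 was 0 in every retina. Reads of Y-linked genes above 10 CPM were in 2 of 5 animals of 12-month DBA/2J, 2 of 5 at 6 months and 1 of 5 Gpnmb+ animals. P-values measure the spread between these animals.

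No gene passed the test across all genes. With the genotypes weighted equally, 0 of 12977 genes (0%) had an adjusted p under 0.05 by edgeR's quasi-likelihood test, and 446 (3.44%) had an unadjusted p under 0.05, 194 higher (1.49%) and 252 lower (1.94%) at 12 months. By DESeq2, 35 genes had an adjusted p under 0.05. The test of the same direction took the larger of the p-values of the genotypes, and again 0 genes (0%) passed after adjustment by edgeR. Unadjusted, 84 genes (0.647%) were under 0.05 in both genotypes with the same sign, 71 higher (0.547%) and 13 lower (0.1%). Taken singly, 474 genes (3.65%) were under 0.05 in DBA/2J and 489 (3.77%) in Gpnmb+. The shares of 3.44%, 3.65% and 3.77% all lie below 0.05 of the genes, the share that this threshold gives where no gene differs. Leaving out 1 animal gave 64 to 148 higher and 4 to 29 lower genes, with 148 without 6-month animal 5 and 4 without 6-month animal 1. Of the 71, 12 were encoded by mitochondrial DNA, and 20 had counts in at most 1 of the 5 animals aged 6 months. Those 20 entered the test through the 12-month animals, where they were high. The genes below are described by their values on this footing, and none is a call at the adjusted threshold by edgeR.

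The most uniform group was the set of transcripts of the mitochondrial genome. Their share of all counts was 1.98%, 2.06%, 1.56%, 2.11% and 2.00% in 12-month DBA/2J animals 1 to 5, and 2.45%, 2.12%, 1.94%, 1.21% and 2.04% in Gpnmb+ animals 1 to 5. At 6 months it was 0.641%, 1.17%, 1.02%, 1.49% and 1.41%. Every 12-month DBA/2J animal and 4 of 5 Gpnmb+ animals lay above every 6-month animal. Gpnmb+ animal 4, the only 12-month animal with 1 retina, lay inside the 6-month range. Of the 13 protein-coding mitochondrial genes 12 were tested. All 12 had a positive mean difference, 11 with an unadjusted p under 0.05 and 10 in both genotypes, and the exception among the 12 at the first threshold was mt-Co3 (p = 0.295). The median log2 difference of the 12 was 1.01 (1.18 in DBA/2J, 0.93 in Gpnmb+), beside -0.03 over all genes tested.

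**Figure D1:**
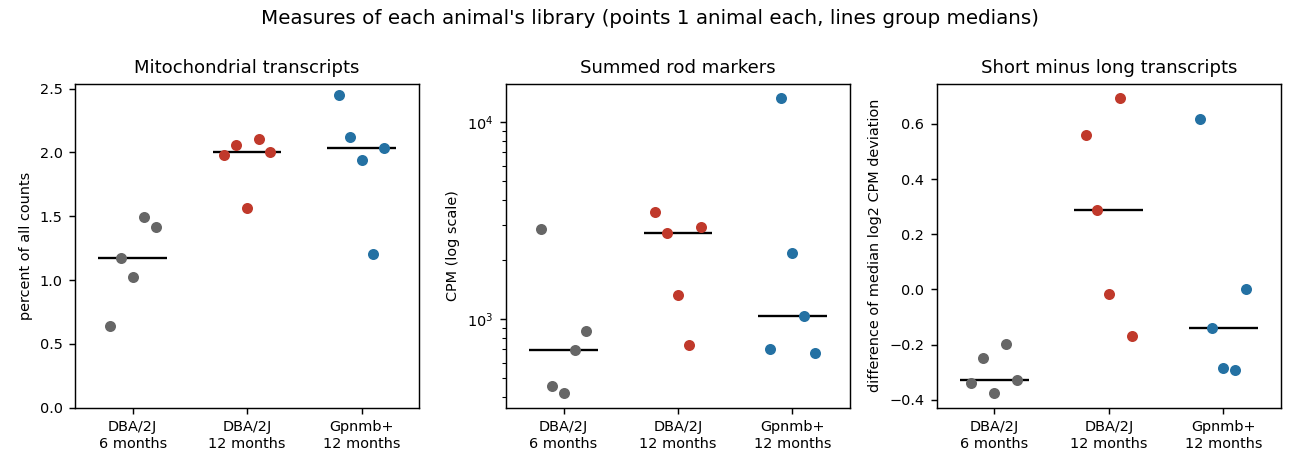
Share of mitochondrial transcripts in percent of all counts, summed rod marker level in CPM (log scale), and the difference between short and long transcripts in median log2 deviation, for each animal (points) with group medians (lines). The mitochondrial share has medians of 1.17% at 6 months, 2.00% in 12-month DBA/2J and 2.04% in Gpnmb+, and rod markers reach 13170 CPM in 1 Gpnmb+ animal.

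The named genes included subunits of the first respiratory complex, NADH dehydrogenase. mt-Nd4 (mitochondrial chromosome, 10167 to 11544, GRCm38) stood at 465, 600.3, 334, 448 and 484 CPM in 12-month DBA/2J and at 860, 703, 417, 296 and 493 CPM in Gpnmb+. At 6 months it stood at 171, 221, 264, 340 and 242 CPM. Only DBA/2J animal 3 and Gpnmb+ animal 4 among the 12-month animals lay below the highest 6-month value. Its log2 difference was 1.04 ± 0.25 (SE, n = 15 animals, unadjusted p = 0.000543, adjusted p = 0.877 by edgeR). mt-Nd1 differed by 0.84 ± 0.21, and mt-Nd2 by 1.33 ± 0.38. mt-Nd3 was the mitochondrial gene that separated the ages fully, at 26.6 to 73.6 CPM in 12-month DBA/2J, 17.5 to 42.0 CPM in Gpnmb+ and 6.94 to 16.4 CPM at 6 months.

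Other mitochondrial products had differences of similar size. mt-Atp6, a subunit of ATP synthase, stood at 1289 to 2504 CPM in 12-month DBA/2J, 849 to 1896 in Gpnmb+ and 517 to 1178 at 6 months, a log2 difference of 0.99 ± 0.23. The cytochrome oxidase subunit mt-Co2 differed by 0.98 ± 0.25 and cytochrome b, mt-Cytb, by 0.81 ± 0.23. mt-Rnr2, the large ribosomal RNA of the mitochondrion, ran from 8149 to 13270 CPM in 12-month DBA/2J, from 6350 to 18260 in Gpnmb+ and from 2152 to 8485 at 6 months. Its log2 difference was 1.00 ± 0.26. The small ribosomal RNA mt-Rnr1, named after its values were seen, differed by 1.17 ± 0.42. Gm28437, a pseudogene on chromosome 1 (24613189 to 24613971), differed by 1.05 ± 0.24. Gm28437 and Gm10222, both higher in both genotypes, are annotated pseudogenes on the nuclear genome, and how counts were shared between mitochondrial genes and nuclear copies was not tested.

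**Figure D2:**
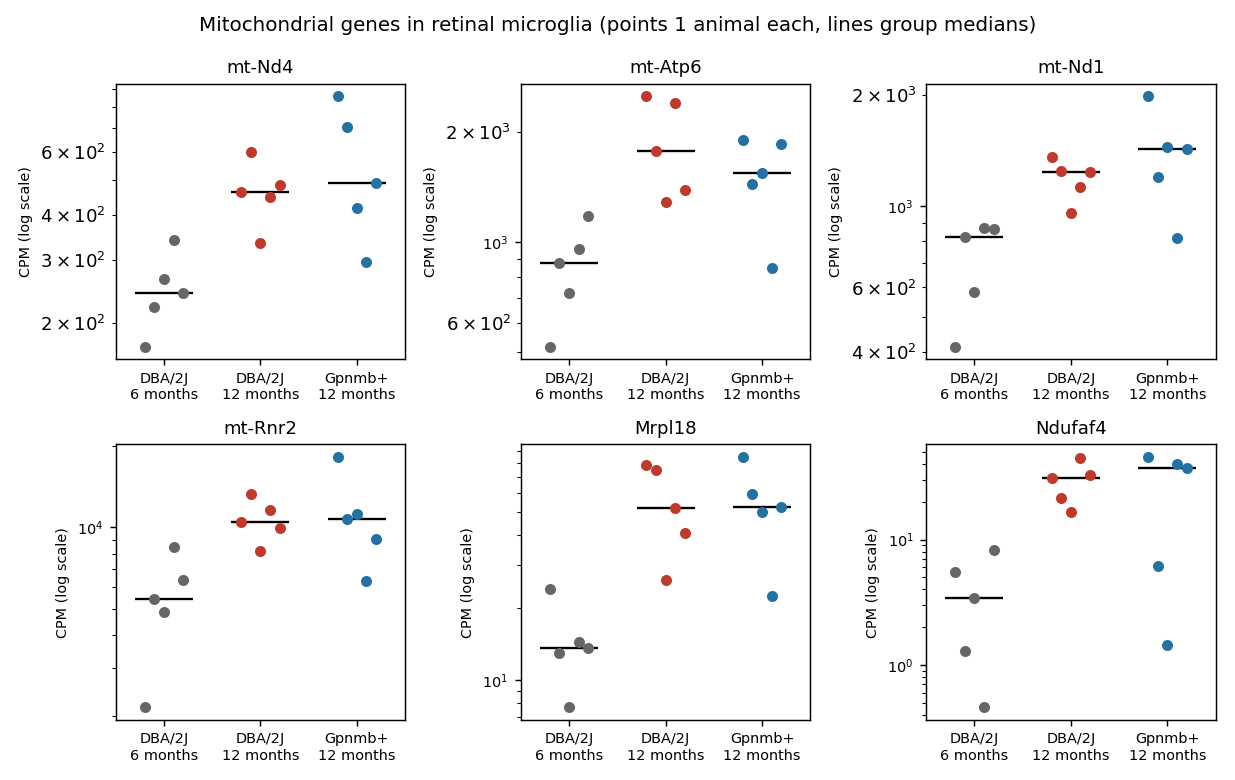
CPM on a log scale of 4 mitochondrially encoded genes (mt-Nd4, mt-Atp6, mt-Nd1, mt-Rnr2) and 2 nuclear genes of mitochondrial proteins (Mrpl18, Ndufaf4), 1 point per animal with group medians as lines. Most 12-month animals of both genotypes lie above the 6-month animals, and Gpnmb+ animal 4 reaches 296 CPM for mt-Nd4 against a highest 6-month value of 340.

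The mitochondrial result depended on which retinas entered. With only the deeper retina of each 12-month animal, the median was 0.86 and 3 of the 12 genes, in place of 10, were under 0.05 in both genotypes. With a correction for transcript length per animal, added after seeing the data, the median was 0.84 and the count was 5. Leaving out the retinas under 10000 genes, which removes Gpnmb+ animals 1 and 2, gave a median of 0.92 and a count of 6. With each retina as a replicate the count was 5 of 13 genes tested. Without 1 animal it ran from 7 (without 6-month animal 1) to 11, with 12 or 13 genes tested. DESeq2 gave 5 of the 12 an adjusted p under 0.05, among them mt-Atp6 (0.017), mt-Nd4 (0.0191), mt-Nd1 (0.0404) and mt-Co2 (0.047).

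Of nuclear genes for mitochondria, Mrpl18, a protein of the mitochondrial ribosome, had the smallest larger p of all genes (0.00137, adjusted 1). Mrpl18 (chromosome 17, 12911349 to 12916345) stood at 78.1, 74.5, 26.2, 51.8 and 41.0 CPM in 12-month DBA/2J and at 84.8, 59.3, 50.02, 22.4 and 52.7 CPM in Gpnmb+, against 23.9, 12.95, 7.72, 14.4 and 13.6 CPM at 6 months. All 12-month animals but Gpnmb+ animal 4 lay above every 6-month animal. The log2 difference was 1.90 ± 0.46, and it was 1.90 in DBA/2J and 1.89 in Gpnmb+. Ndufaf4, an assembly factor of the first respiratory complex, differed by 2.87 ± 0.89, with levels of 16.5 to 44.8 CPM in 12-month DBA/2J, 1.45 to 45.8 in Gpnmb+ and 0.459 to 8.27 at 6 months.

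Nuclear genes of oxidative phosphorylation moved less and less evenly. Of 44 genes 38 had a positive difference, 5 with an unadjusted p under 0.05 and 2 in both genotypes, Atp5b and Atp5c1, both subunits of ATP synthase. The median was 0.45 (0.63 in DBA/2J, 0.22 in Gpnmb+), and 48.3% of all genes tested were positive. Atp5b differed by 0.54 ± 0.17, with 271 to 366 CPM in 12-month DBA/2J, 231 to 322 in Gpnmb+ and 177 to 254 at 6 months. Ndufa4, a small subunit of the respiratory chain, separated the ages fully, at 51.7 to 123 CPM, 39.3 to 80.1 and 28.0 to 38.2 CPM in the same order. The 5 genes were 2 without 6-month animal 2, 3 without 12-month DBA/2J animal 1 or 6-month animal 4, and 8 without Gpnmb+ animal 2. The median was 0.13 with the length correction and -0.11 with single retinas and a random animal effect.

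Ribosomal proteins had positive differences in 38 of 39 genes, 13 with an unadjusted p under 0.05 and 2 in both genotypes, Rpl10a and Rpl5. The median was 0.47 (0.64 in DBA/2J, 0.24 in Gpnmb+) and 0.25 with the length correction. The 13 genes became 3 with 1 retina per animal and 0 with each retina as a replicate. Without 1 animal they were 4 (without 6-month animal 1) to 24 (without Gpnmb+ animal 2), with 5 without 6-month animal 3, and 7 when Gpnmb+ animal 5 or DBA/2J animal 1 or 4 of the 12-month group was left out. Their summed level was 9983 to 15290 CPM in 12-month DBA/2J and 7520 to 9431 CPM at 6 months, which do not overlap. In Gpnmb+ it ran from 6969 to 14070 CPM and overlapped the 6-month range. Rpl3 of the large subunit was above every 6-month animal in all 10 animals, with 620 to 888 CPM in DBA/2J, 554 to 683 in Gpnmb+ and 425 to 553 at 6 months, a log2 difference of 0.47 ± 0.14. Copies of ribosomal protein genes are common in the genome, so single values of this family are uncertain.

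Of the proteasome, 23 of 28 genes were positive with 1 unadjusted p under 0.05, that of Psmd7, and a median of 0.29. Psmd13, a subunit of the regulatory particle outside that list, differed by 1.48 ± 0.42, with 46.4 to 164 CPM in 12-month DBA/2J, 44.6 to 105 in Gpnmb+ and 16.1 to 48.05 at 6 months. Gpnmb+ animal 3 and DBA/2J animal 1 lay below the highest 6-month value.

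**Figure D3:**
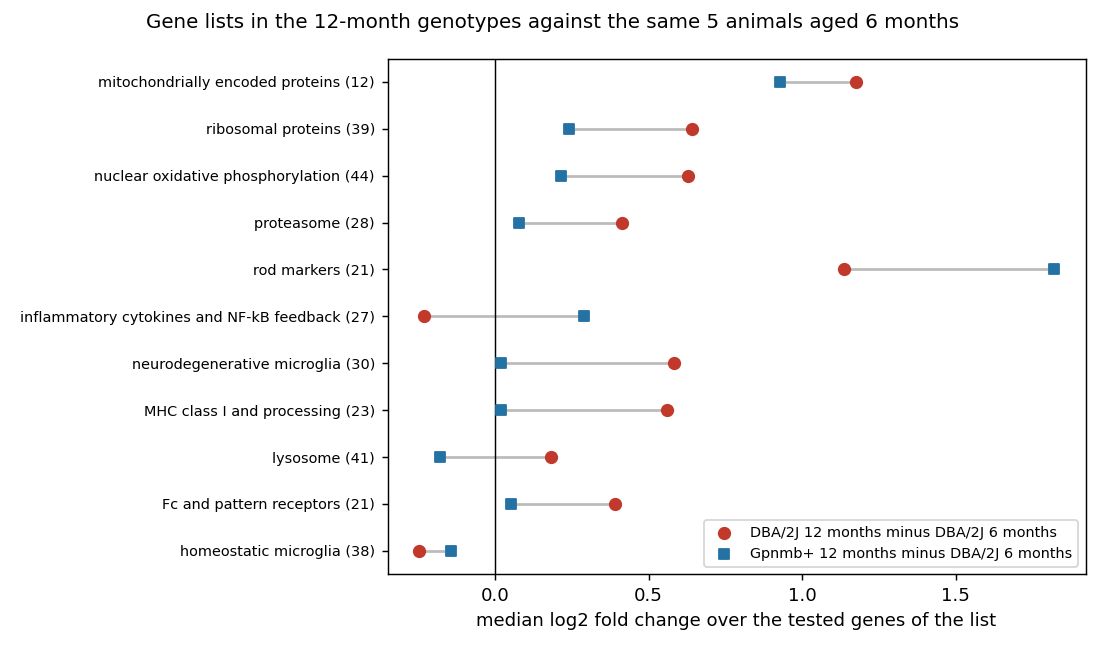
Median log2 fold change over the tested genes of 11 gene lists (number tested in brackets), for 12-month DBA/2J (circles) and Gpnmb+ (squares), each against the same 5 animals aged 6 months. Mitochondrially encoded proteins lie at 1.18 and 0.93, whereas MHC class I lies at 0.56 in DBA/2J and 0.02 in Gpnmb+.

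The difference from 6 months varied with transcript length, more in DBA/2J than in Gpnmb+. Genes whose log2 CPM averaged 4 or more were split into 4 equal groups by length. The median log2 difference was 0.22 in the group with the shortest transcripts (median 963 bases) and -0.17 in that with the longest (4520 bases). In DBA/2J these medians were 0.34 and -0.22, and in Gpnmb+ 0.10 and -0.08. Per animal, the difference between these groups of genes ran from -0.38 to -0.20 at 6 months, from -0.17 to 0.69 in 12-month DBA/2J and from -0.29 to 0.62 in Gpnmb+. Gpnmb+ animals 3 (-0.284) and 4 (-0.292) lay inside the 6-month range. Genes of that level with an unadjusted p under 0.05 had a median length of 1088 bases when higher and 3123 bases when lower, beside 2052 bases over all of them. The length correction removes any difference that runs with length, and the part of length in the list differences was not tested.

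The 2 smallest unadjusted p-values of the cytokine list belonged to chemokines. Ccl12, a ligand of the monocyte receptor Ccr2 (chromosome 11, 82101845 to 82103400), stood at 1234, 912, 781, 663 and 1252 CPM in 12-month DBA/2J and at 733, 404, 256, 231 and 437 CPM in Gpnmb+. At 6 months it stood at 262, 294, 272, 89.3 and 83.5 CPM. All DBA/2J animals and 3 of 5 Gpnmb+ animals lay above every 6-month animal. The log2 difference was 1.66 ± 0.36 (unadjusted p = 0.000196, adjusted p = 0.877 by edgeR; 0.000979 by DESeq2), 2.27 in DBA/2J and 1.04 in Gpnmb+, and the genotypes differed by 1.23 (unadjusted p = 0.00485). Its neighbour Ccl2, another Ccr2 ligand, differed by 0.95 ± 0.33 and nearly equally in both (0.97 and 0.94), with 160 to 309 CPM in 12-month DBA/2J, 121 to 298 in Gpnmb+ and 43.1 to 185 at 6 months.

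Cxcl13, a chemokine that attracts B cells, was close to absent at 6 months. It was 0 in 4 of the 5 animals aged 6 months and 3.11 CPM in animal 1. In 12-month DBA/2J it stood at 165, 294, 88.5, 21.7 and 102 CPM. In Gpnmb+ it stood at 0, 0, 13.1, 33.3 and 81.2 CPM, so 3 of 5 animals lay above the 6-month values. Of the 27 tested genes for cytokines and feedback of NF-kB, 15 were positive and 12 negative, and Ccl12 and Ccl2 were the 2 under 0.05 in both genotypes. Nlrp3, the inflammasome sensor, had a difference of -1.04 ± 0.48, with -1.50 in DBA/2J and -0.59 in Gpnmb+.

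Genes of cell division had higher means at 12 months, with wide overlap in how many were detected per animal. Of the 30 proliferation genes, 18 to 30 reached 1 CPM in 12-month DBA/2J, 11 to 29 in Gpnmb+ and 12 to 22 at 6 months. The summed level was 566 to 1068 CPM, 732 to 1416 CPM and 519 to 605 CPM in the same order, so that every Gpnmb+ animal and 4 of 5 DBA/2J animals lay above the 6-month range. Of 29 tested genes, 27 were positive and 4 were under 0.05 unadjusted, each in both genotypes: the mitotic kinases Aurkb and Aurka, Birc5 of the same kinase complex as Aurkb, and Rrm2, which supplies nucleotides for DNA synthesis. Aurkb, Aurka and Rrm2 passed the filter on low counts only through 12-month animals. Their positive sign was thus fixed by the filter and is no separate result. With animal number as a block 0 genes of the list were under 0.05 in both genotypes. Without 6-month animal 5 the counts were 9 and 8 in both genotypes, and without Gpnmb+ animal 3 they were 4 and 1.

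Animals aged 6 months were at or near 0 for these genes (at most 2.12 CPM), and no fold is given. Aurka stood at 15.8, 13.5, 2.67, 32.1 and 2.49 CPM in 12-month DBA/2J, at 0, 0, 18.8, 0 and 0.626 CPM in Gpnmb+, and at 0 in 4 of 5 animals aged 6 months with 0.316 CPM in the other. All DBA/2J animals and 2 Gpnmb+ animals thus lay above the 6-month values. Aurkb stood at 0, 0, 46.7, 60.2 and 0.697 CPM in 12-month DBA/2J, at 44.3, 0, 5.26, 0 and 28.5 CPM in Gpnmb+, and at 0 in 4 of 5 animals aged 6 months with 0.203 CPM in the other. Birc5 stood at 40.4, 0.784, 12.0, 20.8 and 9.29 CPM in 12-month DBA/2J and at 0, 25.6, 25.2, 0.205 and 8.04 CPM in Gpnmb+, with at most 2.12 CPM at 6 months, so 7 of 10 animals lay above that. Rrm2 stood at 28.6, 0, 36.9, 3.255 and 0 CPM in 12-month DBA/2J, at 0, 0, 20.2, 0 and 17.1 CPM in Gpnmb+, and at most at 0.407 CPM at 6 months. Aspm, a spindle pole protein outside the list, stood at 3.68 to 22.8 CPM in every 12-month DBA/2J animal, at 0, 209, 9.30, 0 and 0.626 CPM in Gpnmb+ and at most at 0.306 CPM at 6 months. Gpnmb+ animals 3 and 5 had counts of all 5 genes, and Gpnmb+ animal 4 had none above 0.205 CPM.

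The promoters of such genes often hold CCAAT boxes, the binding sequence of the factor NF-Y. Printed below for genes named here are 4 stretches of 150 bases that end just before the start of transcription. The sequences are from RefSeq (GRCm38.p6), read in the direction of the gene, with CCAAT or its reverse complement ATTGG in capitals. Aspm (chr1:139454623-139454772, plus strand) has 3 such matches, Aurka (chr2:172370571-172370720, minus strand) 2, Rrm2 (chr12:24708104-24708253, plus strand) 1 and Birc5 (chr11:117849087-117849236, plus strand) 0.
Aspm: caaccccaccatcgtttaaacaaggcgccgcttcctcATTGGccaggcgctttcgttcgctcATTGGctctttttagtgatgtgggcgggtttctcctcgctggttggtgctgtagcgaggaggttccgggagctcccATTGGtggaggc
Aurka: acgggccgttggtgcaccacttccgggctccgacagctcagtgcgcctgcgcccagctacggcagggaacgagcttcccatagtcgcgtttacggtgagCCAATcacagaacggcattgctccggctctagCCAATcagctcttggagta
Rrm2: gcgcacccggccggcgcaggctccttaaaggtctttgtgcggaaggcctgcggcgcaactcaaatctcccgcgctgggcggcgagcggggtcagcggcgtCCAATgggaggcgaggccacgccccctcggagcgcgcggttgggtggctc
Birc5: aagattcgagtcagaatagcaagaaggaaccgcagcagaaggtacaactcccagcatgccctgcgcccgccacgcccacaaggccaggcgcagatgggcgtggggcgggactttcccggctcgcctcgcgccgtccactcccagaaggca
Of the 23 proliferation genes with a sequence, 18 (78.3%) held CCAAT on either strand in this window, beside 29% of the 8907 tested genes with a sequence and 25.3% of 27025 RefSeq genes. The match describes these promoters and says nothing of binding in these animals.

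**Figure D4:**
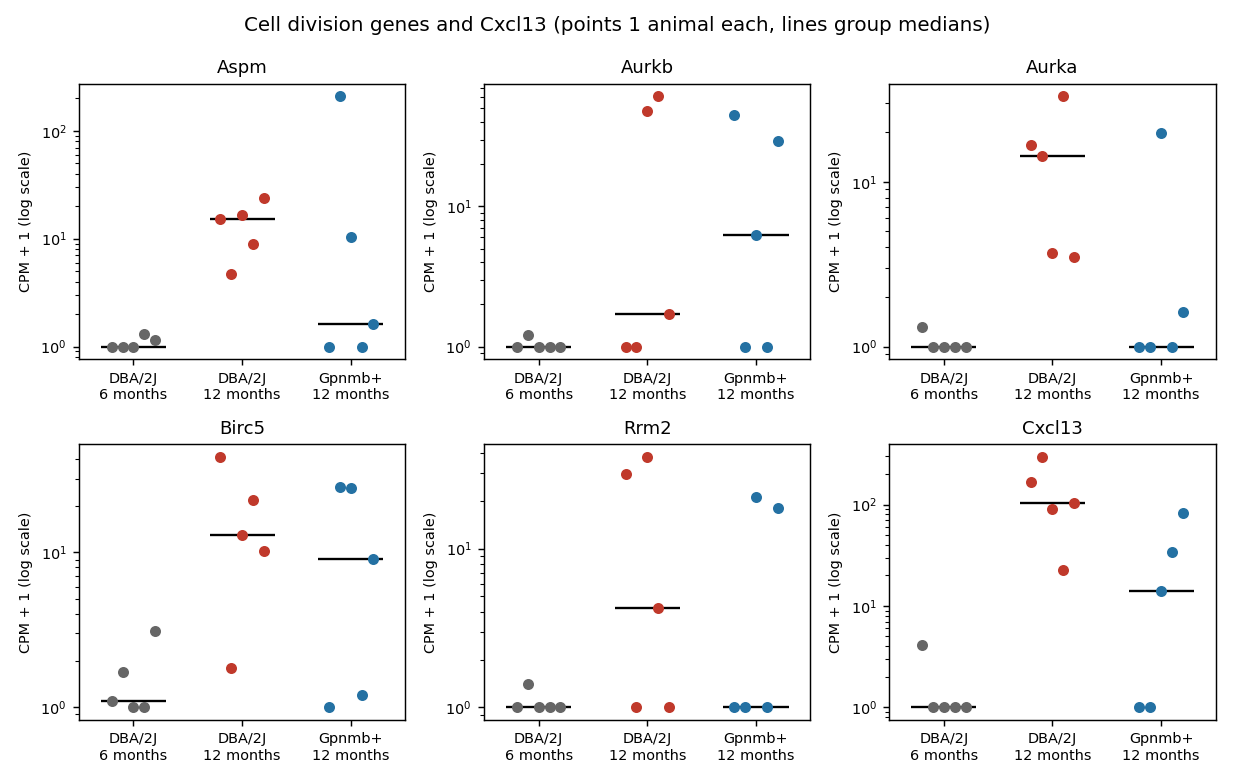
CPM plus 1 on a log scale of 5 cell division genes (Aspm, Aurkb, Aurka, Birc5, Rrm2) and the chemokine Cxcl13, 1 point per animal with group medians as lines. Animals aged 6 months lie near the floor, at most at 3.11 CPM, and the 12-month animals spread from 0 to 294 CPM.

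Fewer genes were lower than higher in both genotypes by this test, an order that turned under other treatments of the counts: 980 lower and 292 higher with no filter, 435 and 17 with single retinas and a random animal effect, and 146 and 92 with sample quality weights. Ppp6r3, a regulatory subunit of protein phosphatase 6 (chromosome 19, 3454928 to 3575749), stood at 19.1, 52.4, 11.6, 46.5 and 53.7 CPM in 12-month DBA/2J, at 36.1, 22.6, 29.4, 48.6 and 38.8 CPM in Gpnmb+ and at 79.5, 151, 54.1, 152 and 85.3 CPM at 6 months. All 10 animals lay below every 6-month animal, the closest by under 1 CPM. The log2 difference was -1.54 ± 0.39 (unadjusted p = 0.000901, adjusted p = 0.877 by edgeR).

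Sirpa, the receptor for the "do not eat me" signal Cd47 (chromosome 2, 129592835 to 129632228), was the most abundant gene that separated the ages fully in the lower direction. It stood at 494, 692, 1047, 396 and 1056 CPM in 12-month DBA/2J, at 816, 825, 691, 1001 and 1275 CPM in Gpnmb+ and at 1710, 1461, 1296, 1327 and 1316 CPM at 6 months. The highest 12-month animal, Gpnmb+ animal 5, lay just under the lowest 6-month animal. The log2 difference was -0.79 ± 0.21, -0.95 in DBA/2J and -0.63 in Gpnmb+.

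Purinergic receptor P2ry13 stood at 528, 506, 862, 457 and 539 CPM in 12-month DBA/2J, at 586, 270.1, 484, 946 and 834 CPM in Gpnmb+ and at 953, 1004, 756, 1086 and 1090 CPM at 6 months. Of the 10 animals 7 lay below every 6-month animal. The log2 difference was -0.70 ± 0.23. Its list of 38 tested homeostatic microglia genes had 29 negative differences, 7 lower and 1 higher with p under 0.05 before adjustment, and P2ry13 as the only gene under 0.05 in both genotypes. Among the 7 were Tgfbr1, a receptor of TGF-beta (-0.43 ± 0.15), Selplg (-0.41 ± 0.17), Cx3cr1 (-0.35 ± 0.16) and P2ry12 (-0.34 ± 0.16). The list's median was -0.15 (-0.25 in DBA/2J, -0.15 in Gpnmb+), and it was 0.01 with the length correction, which left 2 genes lower. Without 6-month animal 1, 3 or 4 the 7 lower genes were 3, and without 12-month DBA/2J animal 2 they were 4.

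**Figure D5:**
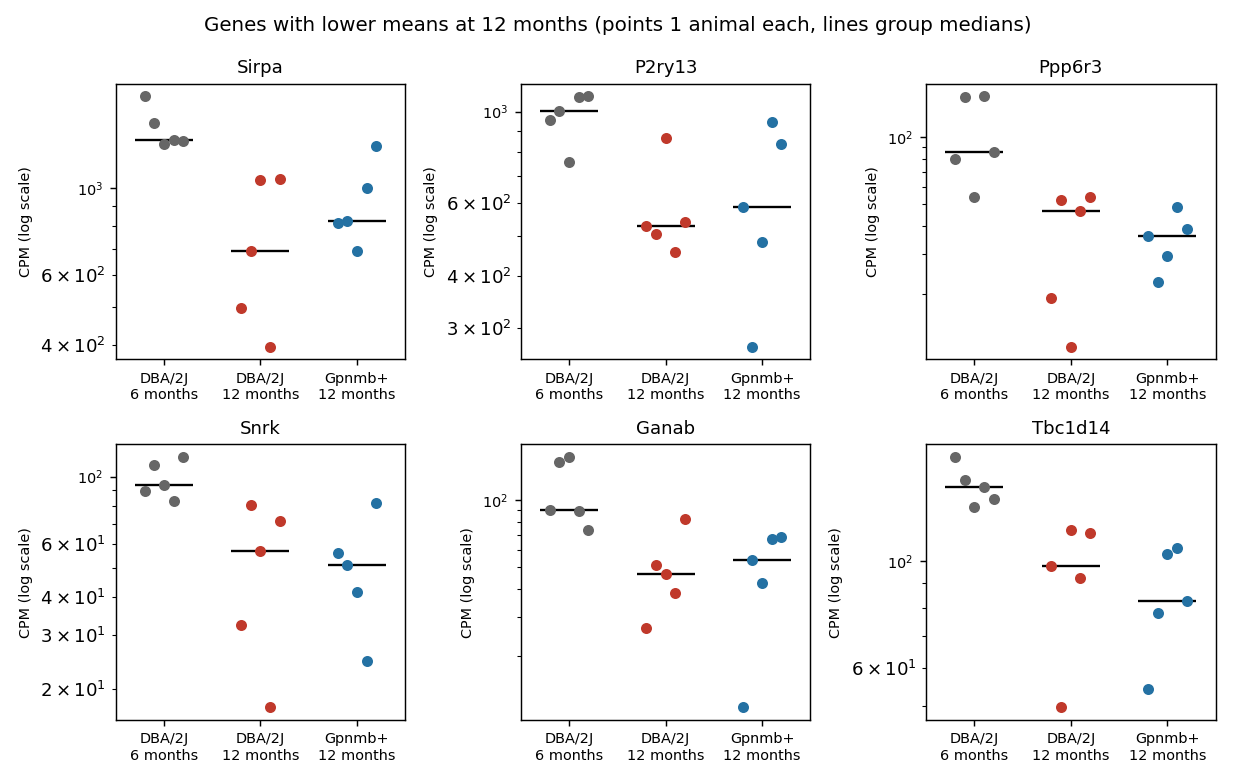
CPM on a log scale of 6 genes with lower means at 12 months (Sirpa, P2ry13, Ppp6r3, Snrk, Ganab, Tbc1d14), 1 point per animal with group medians as lines. For Sirpa every 12-month animal is at or below 1275 CPM and every 6-month animal at or above 1296 CPM.

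The other named lower genes had log2 differences from -1.60 to -0.66. Sqstm1, the autophagy receptor p62, had a log2 difference of -0.66 ± 0.22, with 142 to 299 CPM in 12-month DBA/2J, 151 to 249.9 in Gpnmb+ and 221 to 324 at 6 months. Tbc1d14, a regulator of autophagy, separated the ages fully at 49.7 to 116 CPM, 54.3 to 107 and 130 to 165 CPM in the same order (-0.69 ± 0.24). The kinase Snrk also separated them (-0.94 ± 0.35). Sgsh, a lysosomal enzyme that degrades heparan sulfate, differed by -1.22 ± 0.38, and Ganab, a glucosidase of the endoplasmic reticulum, by -1.19 ± 0.37. Snx18, a sorting nexin, differed by -0.90 ± 0.30 and the intronic transcript Gm29488 by -1.60 ± 0.58. C130089K02Rik and Zbtb4, which filled the named set, had larger p-values of 0.0511 and 0.053.

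The lysosome list itself had no common direction, with 21 of 41 genes positive, 1 higher and 4 lower with p under 0.05 before adjustment, and a median of 0.03. Its lower members differed between the genotypes. Lamp1, a lysosomal membrane protein, had -1.53 in DBA/2J and -0.44 in Gpnmb+ (difference p = 0.00651, unadjusted). Ctsd, a lysosomal protease, had -0.02 and -0.51 (difference p = 0.00263, unadjusted).

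Full separation of the ages, all 10 animals aged 12 months on one side of all 5 aged 6 months, was met by 7 genes higher (0.0539%) and 14 lower (0.108%) of the 12977 tested. The higher genes were C1qbp, Pabpc1, Dbi, Ndufa4, Lpar6, Rpl3 and mt-Nd3. C1qbp, a protein of the mitochondrial matrix, stood at 50.1 to 209 CPM in 12-month DBA/2J, 52.0 to 90.2 in Gpnmb+ and 20.7 to 46.1 at 6 months, a log2 difference of 1.299 ± 0.37. Lpar6, a receptor for lysophosphatidic acid, stood at 238 to 389, 257 to 483 and 139 to 232 CPM in the same order (0.70 ± 0.20). Pabpc1, which binds poly(A) tails, differed by 0.62 ± 0.21. The lower genes were Slc25a46, Ppp6r3, Tbc1d14, Plekha2, Sirpa, Snrk, Parp12, Fam102a, Dtx4, Vwa8, Naip3, Zfp963, Gm37985 and Gm17590. With 1 retina per animal 0 higher and 9 lower genes were left, and without the retinas under 10000 genes 27 and 30 met it. Without Gpnmb+ animal 2 or animal 4 21 and 19 genes met it in the higher direction.

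Several genes with a small p in the equal-weight contrast differed from 6 months unequally in the genotypes. Slc25a20, the mitochondrial carnitine carrier named because it had the smallest p of all (3.09e-05, adjusted p = 0.401 by edgeR), was at 0 in 4 of 5 Gpnmb+ animals and at 0.0659 CPM in the fifth. It stood at 0.534, 0.302, 5.05, 12.3 and 15.9 CPM in 12-month DBA/2J and at 14.3 to 38.8 CPM at 6 months. The lower level was thus that of Gpnmb+ above all. Of the 12-month DBA/2J animals, 4 of 5 also lay below every 6-month animal. DBA/2J animals 4 and 5 reached the values of 6 months or nearly so. The test of the genotypes gave an unadjusted p of 6.98e-05 and an adjusted p of 0.313 by edgeR, and no fold is given against counts this low.

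Apoe, the lipid carrier raised in disease-associated microglia, stood at 3474 to 23370 CPM in 12-month DBA/2J, 483 to 4900 in Gpnmb+ and 815 to 2228 at 6 months. Its equal-weight log2 difference of 1.63 ± 0.51 was made of 2.87 in DBA/2J and 0.39 in Gpnmb+. Lyz2, lysozyme, had 2.42 and 0.64, and Cd63, a tetraspanin of late endosomes, 1.51 and 0.39. Of the 30 tested genes of the neurodegenerative microglia list, 21 were positive, 4 higher and 3 lower with p under 0.05 before adjustment, 0 in both genotypes, with a median of 0.25 (0.58 in DBA/2J, 0.02 in Gpnmb+). Cadm1, an adhesion molecule, was a lower member in both, with -0.44 and -0.86. MHC class I had the same form, with 18 of 23 genes positive, 3 under 0.05 and 0 in both genotypes. H2-D1 had 1.02 in DBA/2J and 0.08 in Gpnmb+, and B2m, the light chain, 0.80 and 0.04. The difference between the genotypes had an unadjusted p of 0.000202 for H2-D1 and 0.000553 for B2m, and 0 of 12977 genes passed adjustment in that test by edgeR (675 unadjusted, 5.2%). The H2 genes are near-identical relatives whose counts may be shared out between them.

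Pattern receptors split, with 14 of 21 genes positive and 1 higher and 3 lower with p under 0.05 before adjustment. The Toll-like receptors Tlr3 (-1.04 ± 0.43) and Tlr6 (-1.23 ± 0.52) were among the lower ones. The lectin Clec4a3 differed by 0.77 ± 0.35, with 1.13 in DBA/2J and 0.42 in Gpnmb+.

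Rod markers, which the gate should remove, had higher means at 12 months with overlapping groups. All 21 rod markers were tested and 19 had a positive difference, with a median of 1.47, 2 genes under 0.05 unadjusted and 1 in both genotypes, the transducin subunit Gngt1. Their summed level was 3480, 2715, 1323, 737 and 2925 CPM in 12-month DBA/2J, 703, 13170, 2160, 1036 and 669 CPM in Gpnmb+ and 2864, 454, 420.4, 695 and 863 CPM at 6 months. Single animals decided these counts. Without 6-month animal 1, 7 genes were under 0.05, 6 of them in both genotypes, with a median of 2.13, and without Gpnmb+ animal 2 the count was 0 and the median 0.71. The rod median was 0.36 without the retinas under 10000 genes. Between the eyes of an animal, the eye with more rod signal had the higher mitochondrial share in 7 of the 9 animals with 2 eyes. That eye had the lower share in Gpnmb+ animals 3 (1.94% against 1.942%) and 5 (1.88% against 2.20%). In Gpnmb+ animal 2 the right eye, with 977873 counts and 3466 genes detected, had 28800 CPM of rod markers and a share of 4.71%. The left eye had 10060 CPM and 1.44%. In 12-month DBA/2J animal 1 the eyes had 7322 CPM with 2.98% and 1001 CPM with 1.43%. Across animals, the 6-month animal 1 had the most rod signal of its group and the lowest share, and Gpnmb+ animal 1, with the highest share, had 703 CPM of rod markers. The part of rod RNA in the mitochondrial difference was not tested. Apart from Apoe, the Muller glia and astrocyte markers summed to medians of 359, 305 and 374 CPM in 12-month DBA/2J, Gpnmb+ and at 6 months. Monocyte markers, including Lyz2, summed to 527 to 1452 CPM in 12-month DBA/2J, 116 to 552 in Gpnmb+ and 63.1 to 358 at 6 months. Lyz2 alone stood at 459 to 1355, 111 to 487 and 40.8 to 321 CPM in the same order. Of the 5 monocyte markers tested, 2 were positive and 3 negative, with a median of -0.245. Border macrophage markers had medians of 226, 153 and 101 CPM. Their ranges overlapped, at 86.4 to 403, 9.63 to 246 and 72.1 to 230 CPM. The part of monocytes and border macrophages in the chemokine values was not tested.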

How the data were processed

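Sorted retinal microglia gave 1 RNA-seq library for each of 24 retinas. The values used are the deposited expected counts per gene, estimated read numbers that need not be whole, as the deposited headers name them. Per the submitters' processing notes the authors used mm10, Salmon 1.4.0, R 4.0.3 and DESeq2 1.30.1, while the role of each is not given in the sources used here. A deposited table of FPKM with 24 sample columns was not used, because its column names did not match the sample titles. How reads matching several genes were shared out affects paralogs and pseudogenes most.

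Counts were rounded, and both eyes of an animal were summed. Of 47729 gene IDs, 47224 matched a symbol in the GRCm38 annotation, which gave coordinates. Among 91 pairs of retinas of a group the share of identical values reached at most 0.432%, and all libraries were kept. Genes kept by filterByExpr (minimum count 10, total 15) entered edgeR 4.0.16 under R 4.3.3 (TMM scaling, quasi-likelihood F test, two-sided, Benjamini and Hochberg over 12977 genes, threshold 0.05), in 1 fit of 3 groups with 12 residual degrees of freedom. The age contrast was the mean of both 12-month groups minus 6 months. The larger of the p-values of both genotypes tested for a shared direction. DESeq2 1.42.0 and limma 3.58.1 were alternatives, and the scripts were tested on simulated data.

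The comparison, the 41 gene lists and the tests were chosen with earlier results of these data known. Lists are described by counts and medians beside all genes tested. Named genes were up to 12 per direction with log2 CPM averaging 4 or more and the same sign in both genotypes, by the adjusted test and otherwise by the smallest larger p, up to 4 per list by p, and marker and label checks. Fully separated genes, Slc25a20, Gm10222, Cx3cr1, P2ry12 and mt-Rnr1 were named after their values were seen.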

Additional observations from a re-analysis of the deposited data

Results flagged for a closer look

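Single animals far from the other 4 of their group were looked for in 87 groups of 5 values (24 named genes and 5 measures of the libraries), with Dixon's 95% limit of 0.71 for the gap over the range. The limit gives about 5% of groups by chance only where values are normally distributed. CPM values with zeros or a long upper tail can pass it more often, so the 9 that stood out are no measured excess. For Aspm, Gpnmb+ animal 2 had 208.8 CPM and the next animal 9.30. For Cxcl13, the 6-month animal 1 had 3.106 CPM and the others 0. P2ry13 was 862.3 CPM and Sgsh 92.77 CPM in 12-month DBA/2J animal 3, with the next animals at 539 and 41.6. mt-Cytb was 322.3 CPM in the 6-month animal 1, below 439 in the next. The mitochondrial share was 1.561% in 12-month DBA/2J animal 3, below 1.98%. Summed rod markers were 2864 CPM in the 6-month animal 1 (next 863) and 13170 CPM in Gpnmb+ animal 2 (next 2160). Summed proliferation genes were 1416 CPM in Gpnmb+ animal 3 (next 908). The 6-month animal 1, Gpnmb+ animal 2 and 12-month DBA/2J animal 3 each stood out in more than 1 of these.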

How the results depend on the processing

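Of 1978 values of 66 named genes under the alternatives, 0 turned their direction and 9, all by DESeq2, passed the adjusted threshold. Most of these genes were chosen by small p-values in the same counts, which the alternatives refit. Few could turn, so the 0 is no independent support. Of 945 list medians under the 27 edgeR alternatives, 4 moved by more than their spread over animals: homeostatic microglia to 0.01 with the length correction, monocyte markers from -0.24 to 1.397 with no filter, and those of pigment cells and sex-linked genes without 1 animal. With single retinas and a random animal effect, outside those 945, nuclear oxidative phosphorylation was at -0.11 and homeostatic microglia at -0.29. Genes with an adjusted p under 0.05 numbered 0 except by DESeq2 (35) and with single retinas and a random animal effect (22). These exceptions differed in direction. Of the 35 genes, 24 were higher at the later age, and of the 22 genes, 0 were higher. The 446 genes at an unadjusted p under 0.05 became 3440 with no filter, 1847 with the random animal effect, 1328 with sample quality weights and 927 without retinas under 10000 genes, and 431 to 764 without 1 animal (764 without Gpnmb+ animal 2, 736 without animal 5).

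By DESeq2, 5 genes had an adjusted larger p under 0.05 in both genotypes and 108 genes differed between the genotypes at 12 months, against 8 with the random animal effect and 0 to 1 without 1 animal. The 71 higher genes in both genotypes became 111 by DESeq2, 292 with no filter, 42 with each retina as a replicate, 17 with the random animal effect, 29 with 1 retina per animal and 145 without retinas under 10000 genes. Without 1 animal they were 64 to 148 (125 without 6-month animal 1, 148 without animal 5, 127 without Gpnmb+ animal 2). The 13 lower genes became 29, 980, 435 with the random animal effect, 146 with quality weights, 8 without low-depth retinas, 56 without retinas under 10000 genes and 27 with Y-linked reads as a covariate, where the first 2 are DESeq2 and no filter. Without 1 animal they were 4 to 29 (4 without 6-month animal 1, 23, 29 and 20 without Gpnmb+ animals 1, 2 and 4).

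Fully separated genes were 0 higher and 9 lower with 1 retina per animal, 27 and 30 without retinas under 10000 genes, and 7 to 21 and 16 to 32 without 1 animal. Animal numbers are not stated to pair animals: deviations of same-numbered animals correlated at -0.02 to 0.08 over 15 pairs, and 6 of 15 animals correlated best with their own number. With animal number as a replicate block the 71 higher and 13 lower genes became 40 and 36, and 0 genes passed adjustment. The Y-linked covariate and the length correction were chosen after seeing the data. The cause of these differences was not tested. Counts near 0 at 6 months limit the cell division genes and Cxcl13.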

Other observations

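Further lists are given by their counts. Of 24 translation factors 12 were positive, with a median of 0.00. Of 37 interferon response genes 17 were positive and 0 were under 0.05 unadjusted, with a median of -0.03. Of 32 splicing factors 20 were positive and 0 were under 0.05, with a median of 0.08. The 29 tested immediate early genes had a median of -0.63 in 12-month DBA/2J and 0.48 in Gpnmb+ against the same animals aged 6 months, and this difference between the genotypes was not tested over the list. Of 20 glycolysis genes 16 were positive, with a median of 0.23 (0.26 in DBA/2J, 0.24 in Gpnmb+) and 0 under 0.05.

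Xist was counted at 124.5 CPM together with Y-linked Eif2s3y at 110.8 CPM in the right eye of Gpnmb+ animal 5, whereas the left eye of that animal had 0 CPM of Xist and 102 CPM of Eif2s3y. The left eye was also the retina with Gpnmb counts. Whether the right eye was mixed or mislabelled was not tested, and both eyes are summed in that animal.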
